A study of Mus musculus with 15 samples.

Results

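The 41 genes described here encode actins, the proteins that bind, cross-link and move actin filaments, proteins of focal adhesions, and the regulators SRF, MRTF-A, MRTF-B, ROCK1 and ROCK2. They were taken by symbol from a fixed list of names, with MRTF-A under Mkl1 and MRTF-B under Mkl2, and all 41 were found among the 27179 genes of every table. The rule uses no measured value. By role there were 5 regulators, 5 actins, 13 filament-binding proteins, 5 myosin genes, 11 adhesion and LIM-domain genes and 2 genes of filament turnover.

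The cells, known as iRECs (induced renal tubular epithelial cells), are mouse cells that introduced transcription factors gave tubule features, and every culture came from 1 such line grown for 7 days in renal epithelial growth medium. Gels of Matrigel, a basement membrane extract, of fibrin, and of collagen I held cells dispensed by hand. The printed cultures were dispensed by an inkjet bioprinter, with fibrin and collagen I in their labels, although the title of their table mentions collagen. The comparison cultures grew in 2D. Each of the 5 conditions had 3 libraries, from passages 35, 48 and 53, so replicates are cultures of 1 line, not animals, and the p-values measure the spread between those cultures. The authors' 4 comparison tables, each of a microenvironment over the same 2D libraries, give a base mean, which is the mean of the normalized read counts over the 6 libraries fitted, and a log2 fold change with its standard error (SE). They hold 0 columns of values per library. Rose, fell and changed are used of genes with an adjusted p under 0.05 in the authors' DESeq2 tables. Where a level in a condition is printed below, it was worked out from the base mean and the fold change of that condition's own table, with the median over the 4 tables for 2D, in normalized reads, and has no error of its own.

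Actin filaments are built from monomers by nucleators and profilin, taken apart by cofilin, and pulled by non-muscle myosin II, whose light chain is phosphorylated by myosin light chain kinase and by the ROCK kinases. MRTF coactivators are held by unpolymerized actin and, when it is used up, enter the nucleus and bind SRF at a DNA element called the CArG box, a stretch of A and T between a pair of C and a pair of G. Many genes of contraction and adhesion, among them actins, vinculin, calponins and SRF itself, are known SRF targets, so this system is often read as a response of cells to stiffness and attachment.

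Summed base means came to 43.8, 43.1, 42.8 and 45.4 megareads after normalization in the Matrigel, fibrin, collagen I and printed tables, and the 41 genes took 1.38% to 1.47% of them. The depth of each library is unknown. All 10 of the tubule markers listed for the check (among them Cdh1, Epcam, Krt8 and Pax8) were present, with summed levels of 194810 normalized reads in Matrigel, 139607 in fibrin, 161202 in collagen I, 203061 in printed cultures and 168585 in 2D. Of them, Cdh1 and Epcam rose in Matrigel, at log2 0.90 ± 0.16 and 0.87 ± 0.16 in the authors' deposited table. Pax8 fell in fibrin and in collagen I, at -0.63 ± 0.19 and -0.66 ± 0.20, and Krt8 fell in collagen I at -0.92 ± 0.28, in the authors' deposited tables. The other tubule values did not pass. Among 11 smooth muscle and pericyte markers, Rgs5 was listed at 0 in every table and the base means of Myocd, Lmod1, Synpo2 and Cspg4 were under 10 in every table. Others of that list were expressed, with base means of 10329 to 13503 for Smtn, 1217 to 2081 for Mcam, 514 to 1029 for Notch3 and 147 to 180 for Des. Of 8 skeletal and cardiac muscle markers, Myod1 and Myog were listed at 0 throughout, and Ckm, Myh6 and Myh7 had base means under 10. Tnnt2 had base means of 111 to 176 and Ttn of 29.6 to 59.5, and Des is on this list too. In the authors' deposited tables Tnnt2 fell in collagen I at log2 -1.88 ± 0.35 (adjusted p = 7.75e-06) and Des fell in fibrin at -0.83 ± 0.29. Bulk RNA cannot tell fewer cells that express a gene from less of its RNA per cell, and this holds for every result below.

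The CArG boxes of the group are shown first, because they are the sequence through which SRF acts. Promoter sequences from RefSeq (GRCm38.p6, 250 bases before to 50 after each annotated start) were matched for 35 of the 41 genes, and an exact CArG box was found in 10 of these, 28.6%, against 488 of 27025 genes with a promoter, 1.81%. The list holds many textbook SRF targets. The 12 boxes follow with 10 bases on each side, 5′ to 3′ on the gene's strand, with the box in capitals.
Srf (chr17:46556225-46556254, - strand): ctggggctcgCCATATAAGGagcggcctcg
Srf (chr17:46556205-46556234, - strand): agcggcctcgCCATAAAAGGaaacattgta
Acta1 (chr8:123894829-123894858, - strand): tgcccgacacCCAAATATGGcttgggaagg
Actg1 (chr11:120348566-120348595, - strand): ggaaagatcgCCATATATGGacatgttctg
Cnn2 (chr10:79988534-79988563, + strand): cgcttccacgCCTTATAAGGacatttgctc
Myl6 (chr10:128493040-128493069, - strand): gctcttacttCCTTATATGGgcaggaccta
Myl9 (chr2:156775293-156775322, + strand): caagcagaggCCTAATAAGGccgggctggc
Vcl (chr14:20929161-20929190, + strand): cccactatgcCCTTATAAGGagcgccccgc
Fhl1 (chrX:56779571-56779600, + strand): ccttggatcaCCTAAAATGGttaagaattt
Fhl2 (chr1:43196838-43196867, - strand): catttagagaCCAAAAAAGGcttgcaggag
Fhl2 (chr1:43163973-43164002, - strand): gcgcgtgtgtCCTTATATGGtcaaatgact
Lima1 (chr15:99820177-99820206, - strand): ctcactttgtCCTTATAAGGctatcctgtt
Boxes were found in the regulator Srf with a pair of them, in the actins Acta1 and Actg1, and in genes of contraction or adhesion. The box CCTTATAAGG recurred in 3 of the 12, those of Cnn2, Vcl and Lima1. The boxes of Fhl1, Fhl2, Myl6 and Lima1 lie at starts inside the gene as GENCODE M21 annotates it, and the other boxes lie upstream of the gene. With 1 mismatch allowed in the A/T stretch, 13 of the 35 genes had a box, 37.1% against 11.3% of all genes, the additional ones being Mkl1, Acta2 and Tpm3. Both strands were searched. A match is a description of letters and no sign of SRF binding in these cells.

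The genes of the list that changed in at least 1 of the 4 comparisons with 2D numbered 9 of the 39 with an adjusted p in any, 23.1%, beside 16.3% of all genes. Of these 9, Fhl1 was the one with an exact box in a matched promoter, 1 of 10 such genes. Of the 25 genes with a matched promoter and no exact box, 7 changed in at least 1 comparison (Acta2, Tpm1, Tpm3, Cald1, Mylk, Pdlim1 and Csrp1), which is 28.0%. Acta2 and Tpm3 had a box when 1 mismatch was allowed, so these counts depend on asking for an exact match. Acta1, Myl9 and Fhl2 with an exact box, and Acta2, Tpm2 and Cnn1 without, had base means under 100 in every table. The difference between the shares with and without an exact box was not tested. In Matrigel the median log2 fold change of the 10 genes with a box was -0.17 and that of the 25 without was -0.11. The medians were 0.10 and 0.02 in fibrin, -0.26 and -0.14 in collagen I, and -0.03 and 0.14 in printed cultures, in the same order. The promoter table had no entry for Actb, Actg2, Pxn, Tagln, Tgfb1i1 and Rock1. Upstream windows of Cald1 and Pdlim1, which each fell in 3 comparisons and hold the 3 largest fold changes of the list, are given to the last base before an annotated untranslated region. No exact CArG box, on either strand, was found in the searched windows of either gene, so no base is in capitals.
Cald1 (chr6:34598254-34598499, + strand): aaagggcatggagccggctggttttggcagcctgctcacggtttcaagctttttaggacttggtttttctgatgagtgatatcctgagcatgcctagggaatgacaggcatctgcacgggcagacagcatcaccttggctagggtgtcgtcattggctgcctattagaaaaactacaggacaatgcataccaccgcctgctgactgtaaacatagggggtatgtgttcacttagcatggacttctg
Cald1 (chr6:34709194-34709441, + strand): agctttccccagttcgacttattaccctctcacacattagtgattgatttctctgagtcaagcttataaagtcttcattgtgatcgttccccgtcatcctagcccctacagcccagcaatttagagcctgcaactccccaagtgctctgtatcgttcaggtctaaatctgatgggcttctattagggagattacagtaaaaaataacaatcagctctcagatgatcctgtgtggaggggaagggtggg
Pdlim1 (chr19:40271617-40271866, - strand): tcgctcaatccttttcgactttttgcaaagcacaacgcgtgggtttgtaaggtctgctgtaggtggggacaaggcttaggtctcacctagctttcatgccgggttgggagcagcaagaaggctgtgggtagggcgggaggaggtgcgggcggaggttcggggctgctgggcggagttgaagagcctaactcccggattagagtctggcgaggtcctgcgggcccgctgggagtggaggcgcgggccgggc
The first Cald1 window ends at position -5 from the outer annotated start of that gene, and the second at position -3 from a start inside it. CATTCC, the core letters of a TEAD site, was searched on both strands and found in 11 of 35 promoters of the list, 31.4%, against 16.6% of all genes. The first Cald1 promoter holds it and that of Pdlim1 does not.

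With calls at an adjusted p under 0.05, 1 gene of the list rose and 6 fell in Matrigel, of 37 with an adjusted p, where 6.36% of all genes were called (4.03% higher and 2.32% lower). In fibrin 2 rose and 1 fell of 38, beside 8.3% of all genes (5.19% higher and 3.11% lower). Collagen I had 2 that rose and 3 that fell of 36, beside 11.2% of all genes (6.51% higher and 4.65% lower). In printed cultures 0 rose and 2 fell of 39, beside 3.18% of all genes (2.51% higher and 0.675% lower). At an unadjusted p under 0.05 the counts were 9, 7, 15 and 7 of 41. No share of all genes at that threshold is given here, so nothing is read from these counts. The share called in fibrin was thus close to that of all genes, and the 6 of 37 that fell in Matrigel were a larger share than that of all genes. In printed cultures the 2 of 39 are 5.13% beside 3.18% in either direction. Among genes there with a base mean of at least 100, 1 of 32 was called, 3.12% beside 4.2% of all genes. No departure from all genes is read from the printed counts. Under an empirical null, in which the median and scaled median deviation of all Wald statistics stand in for their theoretical centre and spread, the list had 6, 0, 1 and 1 called genes in that order, beside 2.55%, 2.28%, 1.04% and 1.81% of all genes.

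**Figure D1:**
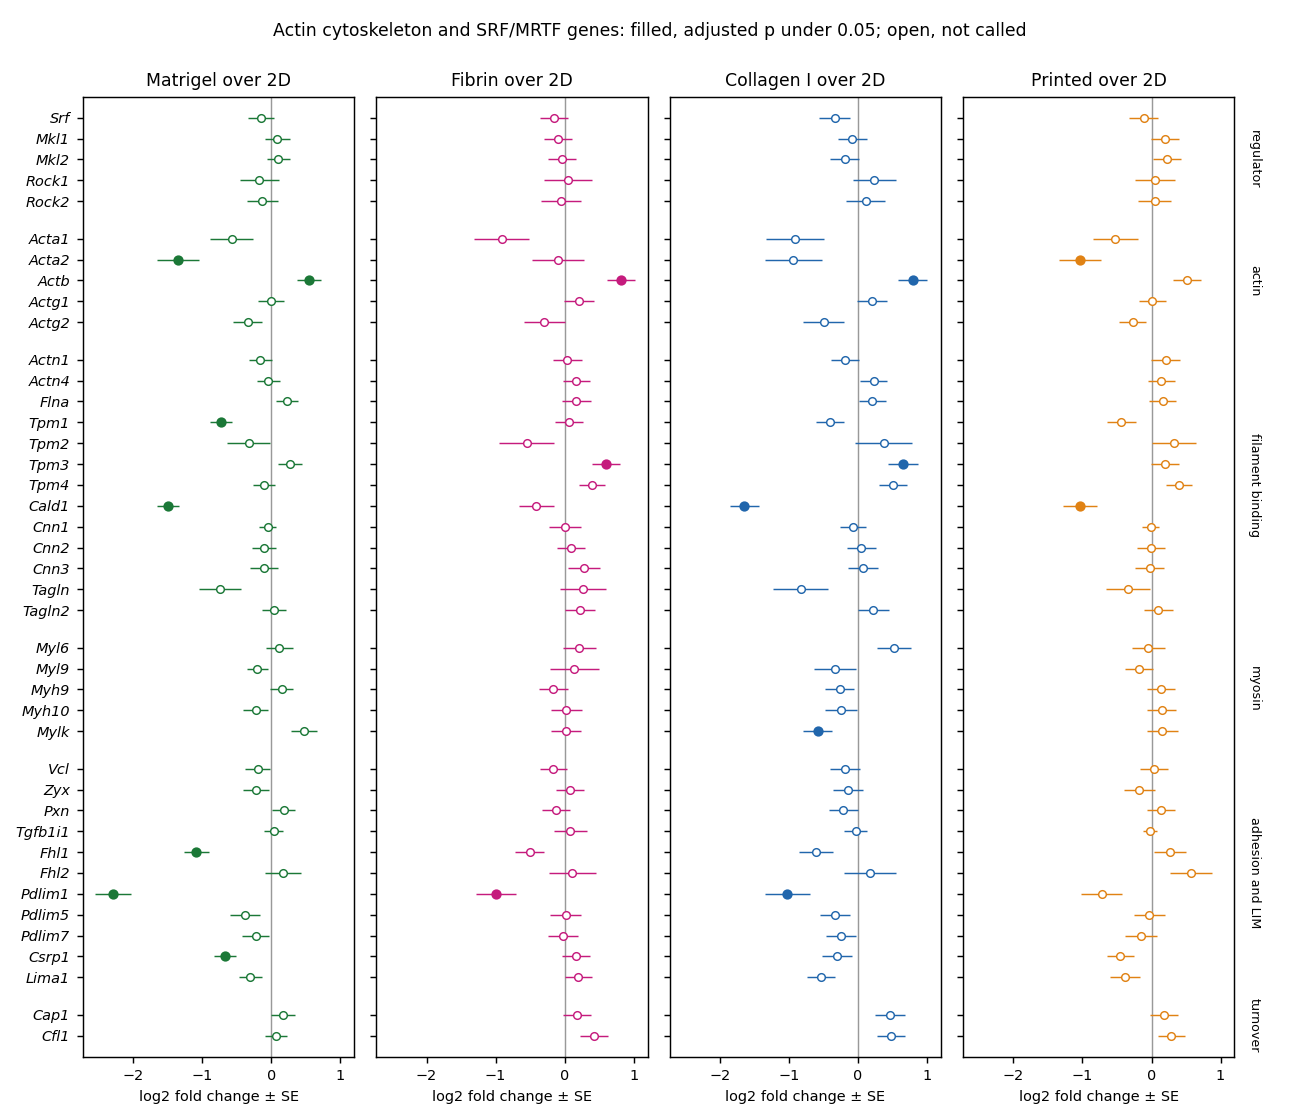
Log2 fold change over 2D (x axis, with the authors' SE as bars) of all 41 genes, 1 row per gene grouped by role, for Matrigel, fibrin, collagen I and printed cultures from left to right. Filled points had an adjusted p under 0.05 and open points did not, and most rows stay near 0 while Cald1 and Pdlim1 reach -1.65 and -2.29.

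Most of the system did not pass the test anywhere, and most of all genes did not pass against 2D either. In at least 1 comparison with 2D, 23.1% of the listed genes with an adjusted p changed, beside 16.3% of all genes. Of the 41 genes, 32 were called in no comparison with 2D and in no comparison between microenvironments. Of these, 24 had a base mean of 1000 or more in every table, and the largest of their log2 fold changes in either direction was 0.54, for Lima1 in collagen I. Low counts limit 9 genes, whose base mean was under 100 in every table (Acta1, Acta2, Actg2, Tpm2, Cnn1, Tagln, Myl9, Tgfb1i1 and Fhl2). These are mostly the genes of differentiated smooth or striated muscle.

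Over the 41 genes the median log2 fold change was -0.13 in Matrigel, 0.05 in fibrin, -0.19 in collagen I and 0.04 in printed cultures. The medians of all genes with an adjusted p were -0.0039, 0.0037, 0.010 and 0.010. Fold changes below 0 numbered 27, 15, 25 and 19 of the 41. Among the 31 genes whose base mean was at least 1000, 19, 10, 17 and 11 were below 0, where 45.6%, 45.6%, 43.1% and 44.4% of all genes so filtered were. Of those 31 genes, 5, 2, 4 and 1 changed, beside 6.39%, 7.48%, 11.2% and 3.12% of all genes of that level.

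**Figure D2:**
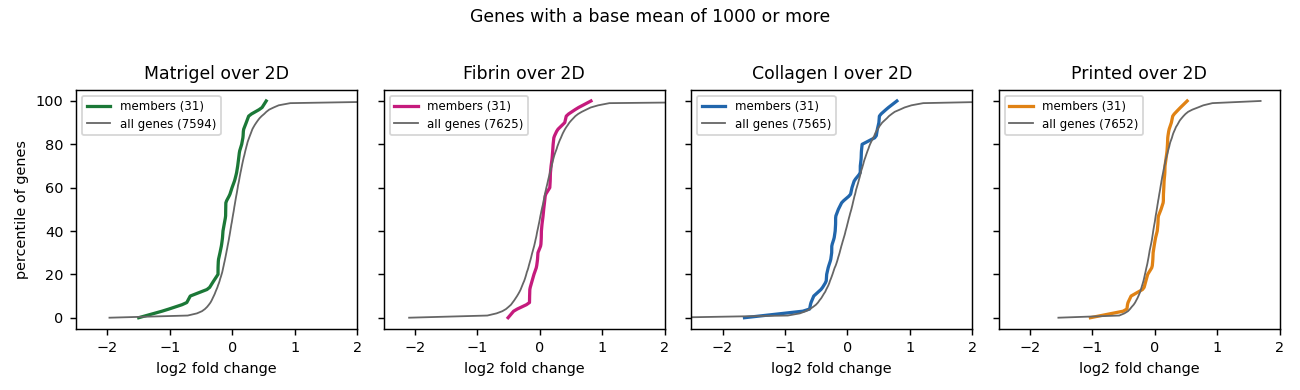
Percentiles of the log2 fold change over 2D for the 31 genes of the list (coloured) and for all genes (grey) whose base mean was at least 1000, 1 panel per microenvironment. The coloured line lies left of the grey one over much of its course in Matrigel and collagen I, with medians of -0.11 and -0.14 against 0.03 and 0.06.

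In 2D, levels divided by exon length put the cytoplasmic actins first, with 30957 normalized reads per kb for Actb and 31273 for Actg1. Cofilin (Cfl1) followed with 24388, then the tropomyosin Tpm4 with 13934, the myosin light chain Myl6 with 10183 and the non-muscle myosin heavy chain Myh9 with 9837 normalized reads per kb. Regulators were far lower, at 1257 for Srf, 588 for Mkl1, 259 for Mkl2, 199 for Rock1 and 682 for Rock2 normalized reads per kb. The lowest were Cnn1 and Tgfb1i1, at 0.65 and 0.24. Cytoplasmic genes thus filled the top of the order, and the 9 genes with a base mean under 100, mostly genes of smooth or striated muscle, the bottom.

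**Figure D3:**
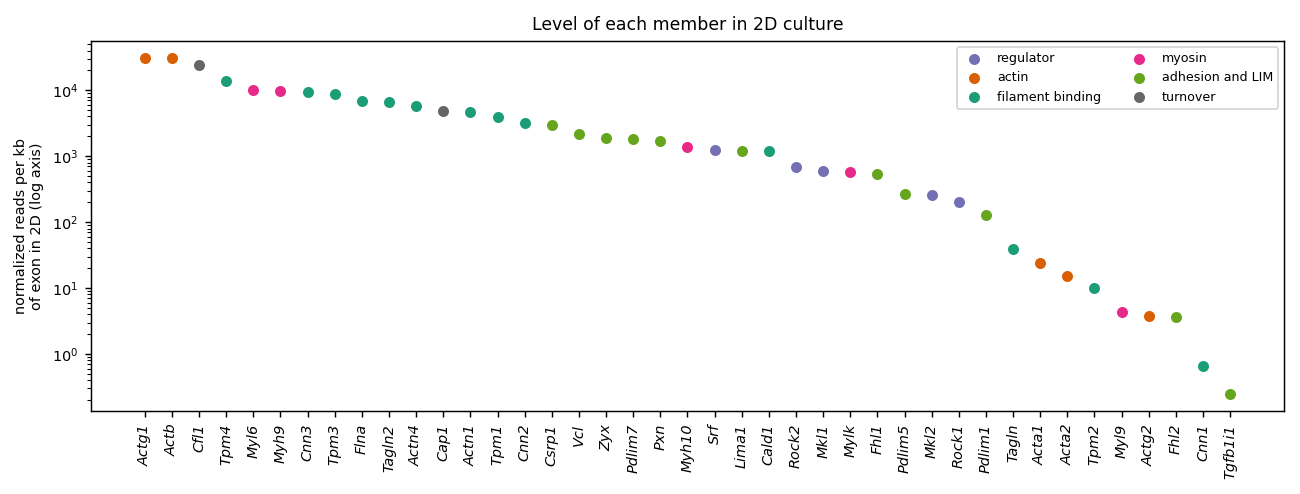
Level of each of the 41 genes in 2D in normalized reads per kb of exon (log axis), in falling order, coloured by role. Cytoplasmic actins stand at 30957 and 31273 normalized reads per kb on the left, and the 9 genes with a base mean under 100 fill the right end.

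None of the 5 regulators changed in any comparison. Srf, the DNA-binding factor itself, had 2998 normalized reads in Matrigel, 2908 in fibrin, 2507 in collagen I and 3111 in printed cultures, against 3288 in 2D. All 4 values lay below 2D and none passed the test. Its log2 fold changes in the authors' deposited tables were -0.15 ± 0.19, -0.16 ± 0.20, -0.34 ± 0.22 and -0.12 ± 0.21, with adjusted p from 0.376 to 0.948. In collagen I the 95% interval was -0.78 to 0.10, so a fall of that size is within the error. Mkl1 and Mkl2, the MRTF coactivators, ranged from -0.20 ± 0.21 to 0.22 ± 0.21 in the authors' deposited tables, both extremes being those of Mkl2, in collagen I and in printed cultures. Rock1 and Rock2, kinases downstream of RhoA, ranged from -0.17 ± 0.28 to 0.24 ± 0.31 there, and the smallest adjusted p of these 4 genes was 0.647. MRTF and ROCK act through location and activity, which RNA levels do not measure.

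Cytoplasmic beta-actin rose in the gels and gamma-actin did not pass. Actb (gene 11461, chromosome 5, 142903115 to 142907976, GRCm38) had levels of 87183 normalized reads in Matrigel, 104067 in fibrin, 99591 in collagen I and 87527 in printed cultures, against 59437 in 2D. Every microenvironment thus exceeded 2D. In the authors' deposited tables the log2 fold change was 0.54 ± 0.18 in Matrigel (adjusted p = 0.0351), 0.82 ± 0.20 in fibrin (adjusted p = 0.00201) and 0.79 ± 0.21 in collagen I (adjusted p = 0.00337), rises of 1.46-fold, 1.76-fold and 1.73-fold. Printed cultures missed the threshold, at 0.52 ± 0.20 with adjusted p = 0.165 in the authors' deposited table. The difference between any 2 of the 4 microenvironments was at most 0.30 in size, with a smallest adjusted p of 0.921 and 95% intervals that reached from -0.86 to 0.55. None of these rises passed under the empirical null (adjusted p 0.104 to 0.361). Of the 50-base words in the Actb transcript, 14.2% occur in transcripts of other genes, so some of its reads may have been left out or shared.

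Actg1, the second cytoplasmic actin, had levels of 61272 in Matrigel, 69871 in fibrin, 68291 in collagen I and 62930 in printed cultures, against 61045 normalized reads in 2D. Its log2 fold changes in the authors' deposited tables ran from -0.00 ± 0.19 to 0.21 ± 0.22, with a smallest adjusted p of 0.624. Shared sequence is larger here, since 56.7% of its 50-base words occur elsewhere, most of them in the pseudogene Gm12715. Summed, Actb and Actg1 had 148455 normalized reads in Matrigel, 173938 in fibrin, 167882 in collagen I and 150457 in printed cultures, against 120482 in 2D. Actb made up 58.7%, 59.8%, 59.3% and 58.2% of the summed actin level in the 4 microenvironments in that order, against 49.3% in 2D. The share of Actb was thus higher in every microenvironment than in 2D, as a description with no test. Because 56.7% of the 50-base words of Actg1 but 14.2% of those of Actb occur elsewhere, reads may be lost unequally. The true balance of the 2 genes within a condition is therefore not known.

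Muscle actins were a trace of the summed actin level. Acta1, Acta2 and Actg2 together had 39.5 normalized reads in Matrigel, 59.9 in fibrin, 36.8 in collagen I and 43.7 in printed cultures, against 69.8 in 2D. These genes had base means under 100 in every table, so levels worked out from their fold changes are uncertain. Acta2 (gene 11475, chromosome 19, 34240336 to 34255585, GRCm38), smooth muscle alpha-actin and a usual marker of myofibroblasts, fell in Matrigel at log2 -1.35 ± 0.30 (adjusted p = 0.000395) and in printed cultures at -1.04 ± 0.30 (adjusted p = 0.025) in the authors' deposited tables. Collagen I had -0.94 ± 0.41 (adjusted p = 0.128) and fibrin -0.10 ± 0.38 (adjusted p = 0.946) in those deposited tables. The levels behind these values were 11.9 in Matrigel, 37.5 in fibrin, 16.0 in collagen I and 14.7 in printed cultures, against 30.5 normalized reads in 2D, where the 4 tables imply 30.1 to 40.1. The fibrin table is the one that implies 40.1 in 2D, so by its deposited fold change the fibrin level lies below 2D. A fold change worked out from base means alone was log2 0.64 in fibrin, above 2D. The direction of Acta2 in fibrin is therefore not settled. The call in printed cultures was lost under the empirical null (adjusted p = 0.0748), and that in Matrigel was not (adjusted p = 0.022). Acta1, the skeletal muscle actin with an exact CArG box, was between -0.91 ± 0.42 and -0.52 ± 0.32 in all 4 of the authors' deposited tables, and none passed.

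**Figure D4:**
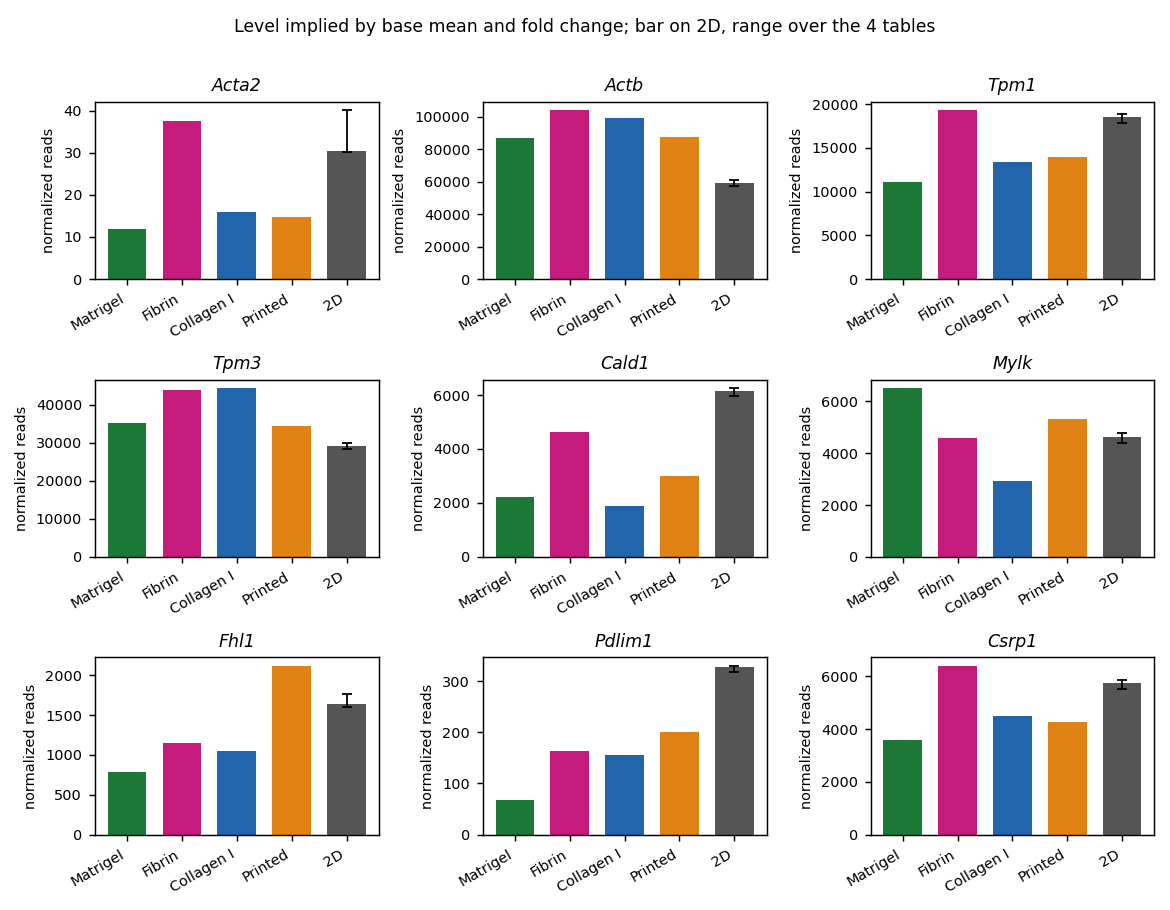
Levels in normalized reads (y axis from 0) of the 9 genes that changed in at least 1 comparison, with bars for Matrigel, fibrin, collagen I, printed and 2D cultures from left to right; the line on the 2D bar spans the values that the 4 tables imply. Actb and Tpm3 stand above 2D in all 4 microenvironments, Pdlim1 stands below 2D in all 4, and Fhl1 has its highest bar in printed cultures, 2119 normalized reads.

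Caldesmon was the filament-binding protein that changed most. Cald1 (gene 109624, chromosome 6, 34598495 to 34775469, GRCm38) encodes a protein that binds actin and tropomyosin and restrains myosin. It had levels of 2214 normalized reads in Matrigel, 4622 in fibrin, 1903 in collagen I and 3013 in printed cultures, against 6154 in 2D. All 4 lay below 2D, with fibrin nearest to it. In the authors' deposited tables it fell at log2 -1.50 ± 0.16 in Matrigel (adjusted p = 3.97e-17), -1.65 ± 0.21 in collagen I (adjusted p = 3.37e-12) and -1.03 ± 0.25 in printed cultures (adjusted p = 0.00308), which are 2.83-fold, 3.13-fold and 2.05-fold lower levels. Fibrin did not pass, at -0.41 ± 0.26 with adjusted p = 0.41 in the authors' deposited table. The 3 calls held under the empirical null, with adjusted p of 3.97e-10, 2.83e-04 and 0.0147. No 50-base word of the Cald1 transcript occurs in another gene, and no annotated exon lies opposite it.

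A list of 11 fibroblast markers had a summed level of 6615 normalized reads in Matrigel, 12555 in fibrin, 8786 in collagen I and 14223 in printed cultures, against 14715 in 2D. The sum was lowest in Matrigel and next lowest in collagen I. Fibronectin (Fn1) and vimentin (Vim) made up 94.5% to 97.1% of the sum in each condition. Fn1 fell in Matrigel at log2 -1.97 ± 0.21 and in collagen I at -1.73 ± 0.26 and had -0.23 ± 0.20 in printed cultures, in the authors' deposited tables, and Vim passed in none. Of the others, Pdgfra and Col1a1 fell in fibrin, Col1a1 fell in collagen I, and S100a4 rose in fibrin, collagen I and printed cultures. Thy1 and Dcn had base means of at most 0.33 and 1.98, and those of Col3a1, Lum and Col1a2 were at most 16.0, 10.9 and 24.9. Base means were 141 to 196 for Col1a1, 99.9 to 202 for S100a4, 28.2 to 42.0 for Pdgfra and 31.1 to 52.4 for Pdgfrb. Thy1 was listed at 0 in the Matrigel, fibrin and collagen I tables, and Col1a2 in the fibrin and printed tables. The part of such cells in the Cald1 result was not tested. The summed level of the 11 smooth muscle and pericyte markers was 14204 in Matrigel, 12939 in fibrin, 11464 in collagen I and 18879 in printed cultures, against 13967 normalized reads in 2D, and Smtn made up 79.8% to 91.3% of it. In fibrin 3 of these markers fell in the authors' deposited table, Mcam at log2 -1.49 ± 0.23, Notch3 at -1.23 ± 0.25 and Des at -0.83 ± 0.29, and in collagen I 1 fell, Mcam at -0.92 ± 0.29. In Matrigel and in printed cultures 0 of the 8 with an adjusted p changed.

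Tropomyosins, which lie along the filament and set what else can bind it, split. Tpm1 (gene 22003, chromosome 9, 67022590 to 67049672, GRCm38) had levels of 11148 in Matrigel, 19289 in fibrin, 13423 in collagen I and 13961 in printed cultures, against 18526 normalized reads in 2D. In the authors' deposited table for Matrigel it fell, at log2 -0.74 ± 0.16 (adjusted p = 0.000209), also under the empirical null (adjusted p = 0.015). Values in the other deposited tables of the authors were 0.06 ± 0.20 in fibrin, -0.41 ± 0.20 in collagen I and -0.44 ± 0.21 in printed cultures, with adjusted p of 0.933, 0.19 and 0.375.

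Tpm3 (gene 59069, chromosome 3, 90072651 to 90100902, GRCm38) went the other way, with 35288 in Matrigel, 44015 in fibrin, 44408 in collagen I and 34297 in printed cultures, against 29208 normalized reads in 2D. It rose in fibrin at log2 0.60 ± 0.21 (adjusted p = 0.0491) and in collagen I at 0.64 ± 0.22 (adjusted p = 0.0322) in the authors' deposited tables. Both calls were lost under the empirical null (adjusted p = 0.416 and 0.633), and that in fibrin also when fold changes were recentred on the median gene (adjusted p = 0.0613). Of the 50-base words of Tpm3, 62.4% also occur in Tpm3-rs7, so its reads cannot be assigned with certainty. Tpm4, a cytoplasmic tropomyosin, had 0.40 ± 0.19 in fibrin, 0.50 ± 0.20 in collagen I and 0.40 ± 0.19 in printed cultures in the authors' deposited tables and passed in none, with a smallest adjusted p of 0.0859. Tpm2, at base means of 16.3 to 32.4, was too low to place.

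The remaining 8 filament-binding genes did not pass anywhere. Filamin A (Flna), which cross-links filaments, lay between 0.16 ± 0.20 and 0.22 ± 0.16 in the authors' deposited tables. Actinins Actn1 and Actn4 lay between -0.19 ± 0.20 and 0.22 ± 0.20 there, both extremes being in collagen I. Calponins Cnn2 and Cnn3, which bind filaments and carry, in Cnn2, an exact CArG box, lay between -0.11 ± 0.20 and 0.28 ± 0.23 in those deposited tables of the authors. Transgelin (Tagln), a smooth muscle gene and textbook SRF target, had base means of 46.0 to 75.9 and log2 values of -0.74 ± 0.31 in Matrigel and -0.83 ± 0.40 in collagen I in the authors' deposited tables, with adjusted p of 0.155 and 0.184. Annotated exons of other genes lie opposite 971 of the 1595 exon bases of Tagln. The strand setting of the counting is not given in the sources used here, so some of its few reads may belong to those genes. Tagln2, the abundant relative of Tagln, stayed between 0.04 ± 0.18 and 0.23 ± 0.22 in the authors' deposited tables. Cnn1 had a base mean of 1.31 to 2.03 and received no adjusted p.

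Non-muscle myosin II genes did not pass in any comparison. Myh9, its main heavy chain here, had 82241 normalized reads in Matrigel, 64345 in fibrin, 58425 in collagen I and 83257 in printed cultures, against 73116 in 2D, and its log2 values ran from -0.27 ± 0.21 to 0.15 ± 0.17 in the authors' deposited tables. Myh10 ran from -0.25 ± 0.23 to 0.15 ± 0.21 there. Myl6, the essential light chain, had 0.51 ± 0.25 in collagen I with adjusted p = 0.179 in the authors' deposited table. Myl9, the regulatory light chain of smooth muscle, was at base means of 3.75 to 8.54.

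Myosin light chain kinase was the one gene of this role to change. Mylk (gene 107589, chromosome 16, 34745199 to 35002436, GRCm38) phosphorylates the regulatory light chain and so switches contraction on. Its level was 6516 normalized reads in Matrigel, 4593 in fibrin, 2914 in collagen I and 5337 in printed cultures, against 4611 in 2D. Collagen I is thus lowest and Matrigel highest. The fall in collagen I was log2 -0.59 ± 0.21 (adjusted p = 0.0485), and Matrigel had 0.47 ± 0.19 (adjusted p = 0.142), in the authors' deposited tables. The call in collagen I was lost under the empirical null (adjusted p = 0.673), and a fold change worked out from base means alone was larger, at -0.87. Annotated exons of other genes lie opposite 557 bases of Mylk, and the strand setting of the counting is not given in the sources used here.

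Pdlim1, of the LIM-domain genes, which tether signalling proteins to filaments and adhesions, had the largest fall of the list, in Matrigel. Pdlim1 (gene 54132, chromosome 19, 40222239 to 40271616, GRCm38) encodes a PDZ and LIM protein that binds alpha-actinin. It had 66.9 normalized reads in Matrigel, 164 in fibrin, 157 in collagen I and 200 in printed cultures, against 327 in 2D. Matrigel was thus lowest and every microenvironment lay below 2D. In the authors' deposited tables it fell at log2 -2.29 ± 0.26 in Matrigel (adjusted p = 8.21e-16), -0.99 ± 0.29 in fibrin (adjusted p = 0.0116) and -1.03 ± 0.33 in collagen I (adjusted p = 0.0204). These are 4.90-fold, 1.99-fold and 2.04-fold lower levels. Printed cultures had -0.72 ± 0.29 with adjusted p = 0.216 in the authors' deposited table. Under the empirical null Matrigel kept its call (adjusted p = 2.55e-09), while fibrin and collagen I lost theirs (adjusted p = 0.214 and 0.551). Of its 50-base words, 19.8% occur in Gm5864.

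Fhl1 (gene 14199, chromosome X, 56731209 to 56793346, GRCm38), a four-and-a-half LIM protein best known from striated muscle, had 779 normalized reads in Matrigel, 1149 in fibrin, 1052 in collagen I and 2119 in printed cultures, against 1644 in 2D. Printed cultures stood above 2D and the 3 gels filled by hand below it. It fell in Matrigel by the authors' deposited table, at log2 -1.09 ± 0.18 (adjusted p = 2.01e-07), and its empirical-null value was 2.71e-04. Fibrin had -0.51 ± 0.21, collagen I -0.61 ± 0.25 and printed cultures 0.26 ± 0.23 in the authors' deposited tables, with adjusted p of 0.118, 0.0994 and 0.798.

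Csrp1 (gene 13007, chromosome 1, 135720063 to 135752229, GRCm38), a cysteine-rich LIM protein of smooth muscle and a known SRF target, had 3607 normalized reads in Matrigel, 6405 in fibrin, 4484 in collagen I and 4278 in printed cultures, against 5745 in 2D. Fibrin stood above 2D and the others below it. The fall in Matrigel was log2 -0.67 ± 0.16 (adjusted p = 0.00148) by the authors' deposited table, and 0.0467 under the empirical null. Lima1, which cross-links filaments and carries an exact CArG box, had -0.54 ± 0.21 in collagen I with adjusted p = 0.0706 in the authors' deposited table. That value passed when fold changes were recentred on the median gene (adjusted p = 0.0481).

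Structural adhesion genes did not pass in any comparison. Vinculin (Vcl), which links talin to actin and carries an exact CArG box, lay between -0.20 ± 0.18 and 0.04 ± 0.20 in the authors' deposited tables. Annotated exons of Ap3m1 lie opposite 2090 of the 5267 exon bases of Vcl, and the strand setting is not given, so some of its reads may belong to Ap3m1. Zyxin (Zyx), which moves to strained filaments, lay between -0.22 ± 0.19 and 0.07 ± 0.20, and paxillin (Pxn), an adhesion scaffold, between -0.21 ± 0.21 and 0.18 ± 0.17, in those tables of the authors. Pdlim5 and Pdlim7, relatives of Pdlim1, had their lowest values at -0.38 ± 0.22 for Pdlim5 in Matrigel and -0.25 ± 0.22 for Pdlim7 in collagen I, in the authors' deposited tables. Fhl2 and Tgfb1i1 had base means of at most 14.6. In filament turnover, cofilin (Cfl1) had 0.07 ± 0.16 in Matrigel, 0.43 ± 0.20 in fibrin, 0.48 ± 0.21 in collagen I and 0.29 ± 0.20 in printed cultures in the authors' deposited tables. Cap1, which recycles actin monomers together with cofilin, had its highest value in collagen I, 0.46 ± 0.22 in the authors' deposited table, and neither gene passed, with a smallest adjusted p of 0.121.

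Microenvironments were compared with each other by subtracting their fold changes on the log2 scale and dividing by the combined SE, the square root of the sum of both squared SEs. The normal p was two-sided and was adjusted by Benjamini-Hochberg over all genes tested in that pair. Because the same 2D libraries enter both fold changes, this error is too wide rather than too narrow where the estimates share their noise. Matrigel minus fibrin gave 1 lower gene of the list, Cald1, at log2 -1.09 ± 0.31 (adjusted p = 0.0361), where 1.13% of all genes were called. Collagen I minus fibrin gave 1 lower gene, again Cald1, at -1.24 ± 0.33 (adjusted p = 0.0400), beside 0.548% of all genes. Caldesmon was thus lower in Matrigel and in collagen I than in fibrin by a tested difference.

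Matrigel minus printed cultures gave 2 lower genes, Fhl1 at log2 -1.35 ± 0.29 (adjusted p = 0.00162) and Pdlim1 at -1.57 ± 0.39 (adjusted p = 0.0157), beside 0.612% of all genes. Matrigel minus collagen I gave 1 higher gene, Mylk, at 1.06 ± 0.28 (adjusted p = 0.0441), beside 0.478% of all genes. The Mylk call was lost when every gene with a p-value was tested (adjusted p = 0.0566, with 3.81e-05 to 0.0566 over the alternatives). Printed minus collagen I and printed minus fibrin each gave 0 genes by this test, beside 0.89% and 1.4% of all genes, with 2 and 3 at an unadjusted p under 0.05. With an assumed correlation of 0.5 between the 2 fold changes each of these 2 pairs gave 2 genes, beside 4.88% and 5.24% of all genes: Mylk and Fhl1 in the first, both higher in printed cultures, and Fhl1 (higher) and Csrp1 (lower in printed cultures) in the second. Fhl1 in printed minus collagen I was 0.87, with a 95% interval of 0.20 to 1.54, and in printed minus fibrin 0.77, with 0.16 to 1.38. These intervals are not adjusted for the number of genes tested, and neither difference passed without the assumed correlation.

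**Figure D5:**
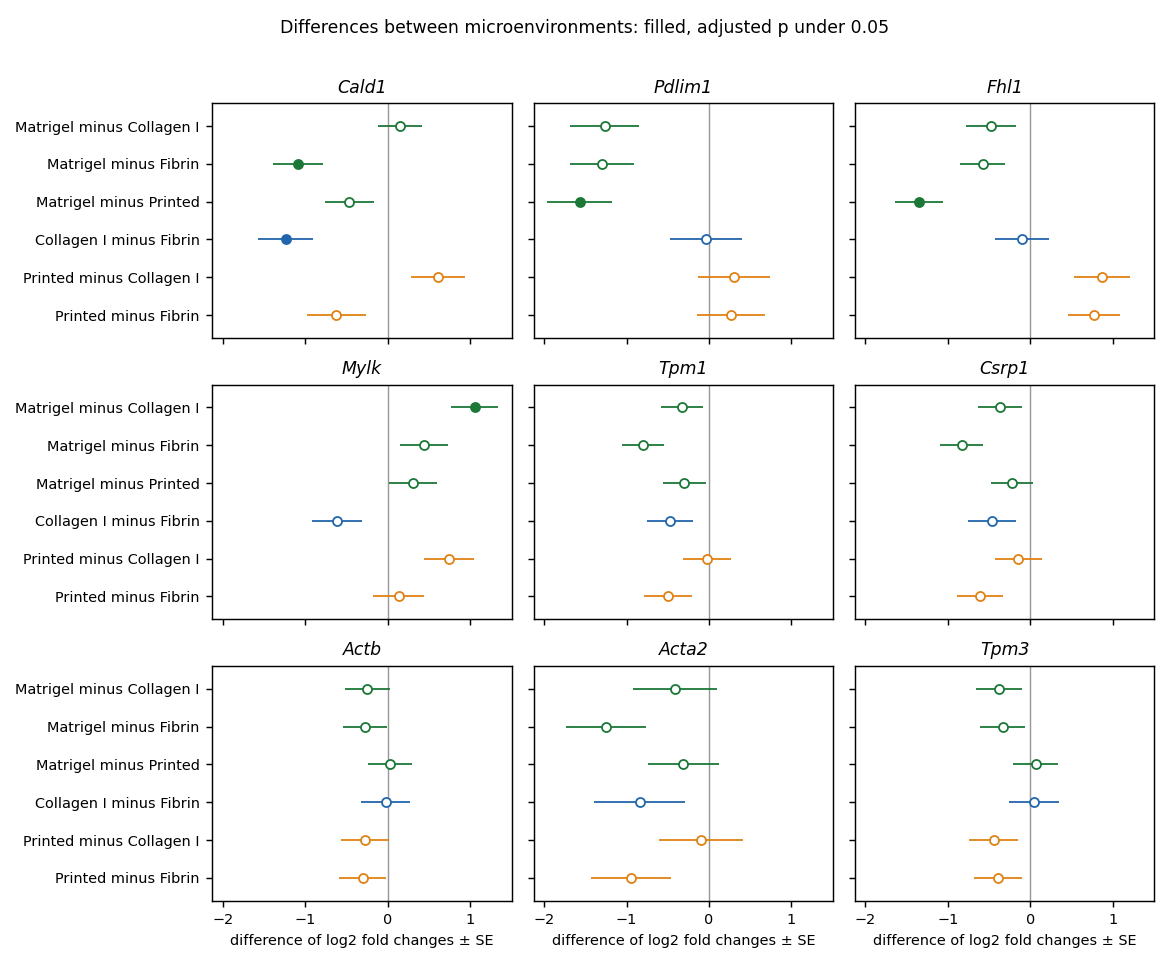
Difference of log2 fold changes (x axis, SE as bars) between the first- and second-named microenvironment for the 9 genes that changed over 2D, with filled points at an adjusted p under 0.05. The 5 filled points are Cald1 in Matrigel minus fibrin and collagen I minus fibrin, Pdlim1 and Fhl1 in Matrigel minus printed, and Mylk in Matrigel minus collagen I; Actb and Tpm3 differ by at most 0.44 in size in all 6 pairs.

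A wider list of 150 other genes of actin, adhesion, their regulators and SRF targets was written from general knowledge, with earlier results of these data known. It gave 5 that rose and 9 that fell in Matrigel, of 143 with an adjusted p, which is 9.79% beside 6.36% of all genes. In fibrin 9 rose and 5 fell of 141, 9.93% beside 8.3% of all genes. In collagen I 10 rose and 12 fell of 140, 15.7% beside 11.2%, and in printed cultures 1 rose and 2 fell of 143, 2.10% beside 3.18%. The shares in fibrin and in printed cultures were thus near those of all genes. Its medians of log2 fold change were 0.01, 0.10, 0.04 and 0.12. Plastin 1 (Pls1), which bundles filaments in epithelial microvilli, rose in all 4 of the authors' deposited tables, by 0.57 ± 0.18 in Matrigel, 0.73 ± 0.20 in fibrin, 0.95 ± 0.22 in collagen I and 0.89 ± 0.20 in printed cultures (largest adjusted p = 0.0238). Talin 2 (Tln2), which couples integrins to actin, fell in all 4 of the authors' deposited tables, at -1.49 ± 0.19, -0.86 ± 0.23, -1.78 ± 0.22 and -1.17 ± 0.24 in that order (largest adjusted p = 0.00523). All 4 comparisons share the 2D libraries.

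Sorbs2, an adaptor at adhesions and Z-bands, fell in Matrigel at -1.19 ± 0.21, in collagen I at -1.18 ± 0.23 and in printed cultures at -0.77 ± 0.22 in the authors' deposited tables, and had -0.19 ± 0.25 in fibrin (adjusted p = 0.796). Profilin 1 (Pfn1), which loads monomers onto filaments, rose in Matrigel by 0.58 ± 0.17, in fibrin by 0.84 ± 0.20 and in collagen I by 0.84 ± 0.22 in the authors' deposited tables, and had 0.36 ± 0.21 in printed cultures (adjusted p = 0.552). Limk1, the kinase that inactivates cofilin, rose in Matrigel, at 0.71 ± 0.17 in the authors' deposited table (adjusted p = 0.00157). Arhgap29, which turns RhoA off, fell at -1.38 ± 0.17 in Matrigel and -1.09 ± 0.27 in fibrin in the authors' deposited tables. Rhou fell at -0.93 ± 0.19 in fibrin and -1.33 ± 0.21 in collagen I there.

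Rnd3, which opposes RhoA, rose in fibrin by 0.94 ± 0.25 in the authors' deposited table (adjusted p = 0.00503). Wasf1, an activator of the Arp2/3 nucleator, rose in fibrin at 0.97 ± 0.26, and the adhesion protein gene Lims2 fell there at -1.01 ± 0.29, in the authors' deposited table. Csrp2, the relative of Csrp1, rose in collagen I at 1.38 ± 0.28 in the authors' deposited table (adjusted p = 6.86e-05), where Csrp1 had -0.31 ± 0.21. Fos, an immediate early gene that SRF drives with ternary complex factors in place of MRTF, rose in fibrin at 1.24 ± 0.30 (adjusted p = 0.00112), and Egr1, of the same kind, rose in collagen I at 0.95 ± 0.29 (adjusted p = 0.0133), in the authors' deposited tables. Of the 14 other SRF-related genes on the wider list, 12 had an adjusted p in each table, and of these 0 rose and 1 fell in Matrigel, 2 rose and 0 fell in fibrin, 1 rose and 0 fell in collagen I, and 0 changed in printed cultures. With 12 genes, 1 call is 8.33% and 2 are 16.7%, beside the 6.36%, 8.3%, 11.2% and 3.18% of all genes in that order, so no departure from all genes is read from these counts.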

How the data were processed

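The deposited tables, 1 per microenvironment against 2D with 3 libraries a group, were used as they stood. The submitters' processing notes name DESeq2 1.22.1, featureCounts 1.6.3, STAR 2.6.0b-1, Trim Galore 0.4.3 and FastQC 0.72, with build mm10. Strand setting, annotation and model terms were each not given in the sources used here. Base means are a signal in the deposited tables, counts averaged after the authors' size-factor scaling. Fold changes and standard errors are log2 values as deposited. The deposited Wald statistic is a score, and the p-value and adjusted p-value beside it are the authors' own.

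Levels in 2D were computed per table as 2 × base mean / (1 + fold), with the median over the 4 tables as the printed value, and a level in a microenvironment is the 2D level of its own table times its fold. The SD of a gene's log2 level in 2D over the 4 tables had a median of 0.038. Exon lengths and shared 50-base words came from GENCODE M21 (GRCm38), and 0 columns of values per library were left unused. Calls were read at adjusted p under 0.05, and the script for differences was tested on simulated data. Alternatives were a threshold of 0.01, a minimum absolute log2 fold change of 1, an empirical null (median and scaled median deviation of the Wald statistics), other filters on base mean, recentring, fold changes implied by base means, and, for differences, a correlation of 0.5. Python 3.11.15, pandas 2.3.3, numpy 2.4.6, scipy 1.17.1 and matplotlib 3.10.9 were used. The genes and both lists were chosen with earlier results of these data known. All 41 genes are reported. Of the 150 other genes, each comparison names the 3 highest and 3 lowest called genes whose base mean was at least 100.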

Additional observations from a re-analysis of the deposited data

Results flagged for a closer look

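The fold change over 2D differed between 2 microenvironments, by the test of the difference itself, in 5 cases, and 4 genes carry them. Cald1 differed by log2 -1.09 in Matrigel minus fibrin and by -1.24 in collagen I minus fibrin. Fhl1 differed by -1.35 and Pdlim1 by -1.57 in Matrigel minus printed cultures, and Mylk by 1.06 in Matrigel minus collagen I. The values in single libraries behind these differences were not analysed here.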

How the results depend on the processing

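No paired analysis was possible because the tables hold no values per library, and for the same reason no replicate could be left out. At an adjusted p under 0.01 the counts of changed genes were 1 of 38 in fibrin, 2 of 36 in collagen I and 1 of 39 in printed cultures. The shares of all genes were 4.95%, 6.31% and 1.69%. With a threshold of 0.05 and a log2 fold change of at least 1 in size, 4 of 37 changed in Matrigel, 0 of 38 in fibrin and 2 of 36 in collagen I. The shares of all genes by that rule were 2.21%, 4.17% and 5.1%. Under the empirical null the counts were 0 in fibrin, 1 in collagen I and 1 in printed cultures, beside 2.28%, 1.04% and 1.81% of all genes. Among genes with a base mean of at least 100 the count was 1 in printed cultures, beside 4.2% of all genes, and Acta2 was not tested there. Of the 150 other genes, 7 were called in Matrigel, 8 in fibrin and 13 in collagen I at 0.01, beside 3.69%, 4.95% and 6.31% of all genes. Under the empirical null 7, 1 and 2 of these 150 genes were called, beside 2.55%, 2.28% and 1.04% of all genes. By settings added for them after seeing the data, 5, 4, 7 and 1 were called in Matrigel, fibrin, collagen I and printed cultures where the log2 fold change had to reach 1 in size, beside 2.21%, 4.17%, 5.1% and 1.51% of all genes, and 5 in printed cultures among genes with a base mean of at least 100, beside 4.2%. For differences, an assumed correlation of 0.5 gave 3 genes in Matrigel minus collagen I beside 4.19% of all genes, 6 in Matrigel minus fibrin beside 4.83%, and 2 in collagen I minus fibrin beside 1.89%, with 2 each in printed minus collagen I and printed minus fibrin. A threshold of 0.01 gave 0 in Matrigel minus collagen I, Matrigel minus fibrin and collagen I minus fibrin, and 1 in Matrigel minus printed. The shares of all genes were 0.314%, 0.59%, 0.406% and 0.357% in that order. The empirical null gave 4 in Matrigel minus fibrin beside 2.1% of all genes and 4 in collagen I minus fibrin beside 3.79%. Testing every gene with a p-value gave 0 in Matrigel minus collagen I, beside 0.329% of all genes. The other counts of called genes of these lists stayed within 1.5 times the reported ones, and no called fold change of the 41 genes turned its direction when recentred or implied by base means. Of 164 fold changes, 20 moved by at least 1 SE when implied by base means, of which 19 were of genes with a base mean under 100 and 1 was that of Mylk in collagen I. The levels printed for genes with a base mean under 100 were worked out from the deposited fold changes, so they share this uncertainty. Col1a2, a fibroblast marker, was listed at 0 in the fibrin comparison, which holds the same 2D libraries. In Matrigel its base mean was 24.9 and its deposited log2 fold change 0.08 ± 0.10, which understates its difference from 2D. The cause of such shifts was not tested. Values per library, which would give depth, spread and direction in each replicate, limit all of this.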
